A study of Mus musculus with 18 samples.

Results

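Total RNA from the livers of Mavs-/- mice was digested with RNase either after incubation with MDA5ΔCARD (MDA5-protected) or without any added protein (RNase only), and the peaks of these 2 fractions were compared. The comparison uses 6 of the 18 libraries of the series, 3 MDA5-protected and 3 RNase only, each with its own list of peaks. Peaks of the 6 libraries that overlapped by at least 1 bp on the same strand were merged into 8978 regions, of the 27252 regions that the lists of all 18 libraries give. Regions with a peak in all 3 MDA5-protected and no RNase only library are called MDA5-only (146 regions), the reverse pattern RNase-only (532 regions), and regions with a peak in every one of the libraries are said to be in all 6 (232 regions). The same rule was applied to genes, taken as all GENCODE M21 gene bodies that a peak touches on its own strand. Of 3670 genes with a peak, 49 were MDA5-only, 325 were RNase-only and 143 had peaks in all 6.

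The mice were 8 to 9 days old, and the tissue is labelled liver. Every animal of the series lacks MAVS, the adaptor through which MDA5 signals, so no library of a MAVS-proficient mouse enters any comparison. The sample titles call this genotype wild-type, whereas the genotype field says Mavs-/-. The second genotype, Adar-/-; Mavs-/-, also lacks the editing enzyme ADAR1 and is used below only to look up regions defined in Mavs-/- liver. The input libraries are undigested RNA and served the authors as the control when they called peaks in the digested libraries. Each list gives the position of a peak and how significant it was but not its reads, so the number of reads behind a peak is unknown. Library totals that the study gives were not used here.

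MDA5 is a cytosolic sensor that binds along double-stranded RNA (dsRNA), forms filaments on it and signals through its CARD domains to MAVS. MDA5ΔCARD is the same protein without those domains, which keeps the helicase and the C-terminal domain that hold the RNA. RNase A and RNase T1 cut single-stranded RNA, so RNA can persist in a digest because it is paired, because it is structured in another way, or because a bound protein covers it. Cellular sources of dsRNA include inverted repeats in introns and 3′ UTRs, which ADAR1 edits, overlapping transcripts of opposite strands, and mitochondrial RNA, whose genome is transcribed on both strands.

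Of the 5 MDA5-only regions with the highest ranks, 4 had sequence at hand, and these were short and rich in the dinucleotide CG. They are shown for that reason, with the start of the MDA5-only gene Shisa4. They were chosen by the rule for named regions and genes, are written 5′ to 3′ on the strand of the peak in GRCm38, and have every CG in capitals. Annotated UTR bases were left out, so some lines give part of a region. A region is merged over libraries, so not every library covered a whole line. The region opposite Erf was covered over 18, 32 and 64 bases in MDA5-protected replicates 1, 2 and 3. The first 5 belong to the MDA5-only group, the next 2 to the regions in all 6. The stretch opposite Nek6 is among the largest relative gains with MDA5, and the last coding bases of Guca2a, which encodes the gut peptide guanylin, are part of a 264 nt region with the largest relative loss.
Eif3f first exon, chr7:108934648-108934719, plus strand: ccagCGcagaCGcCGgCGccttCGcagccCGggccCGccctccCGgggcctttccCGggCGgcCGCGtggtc
Pdzd8 start, chr19:59345781-59345861, minus strand: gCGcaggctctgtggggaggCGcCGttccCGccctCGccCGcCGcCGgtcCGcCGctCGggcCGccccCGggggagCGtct
Shisa4 start, chr1:135374908-135374961, minus strand: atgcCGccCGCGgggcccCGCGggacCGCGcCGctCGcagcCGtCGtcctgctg
Opposite Cadps2, chr6:23839422-23839481, plus strand: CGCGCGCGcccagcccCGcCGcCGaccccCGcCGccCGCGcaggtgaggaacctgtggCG
Opposite Erf, chr7:25250762-25250824, plus strand: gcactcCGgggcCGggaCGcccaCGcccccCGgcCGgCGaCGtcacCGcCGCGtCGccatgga
Opposite Nek6, chr2:38511581-38511642, minus strand: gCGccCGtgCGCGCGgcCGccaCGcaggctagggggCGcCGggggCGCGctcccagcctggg
Guca2a coding end, chr4:119639211-119639275, plus strand: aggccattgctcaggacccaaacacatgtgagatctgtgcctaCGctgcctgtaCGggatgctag

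The 5 MDA5-only stretches held 82.5% to 85% G and C, with 11 to 14 CG in 54 to 81 nt, and the stretch opposite Nek6 held 87.1%. The Guca2a stretch held 55.4% and 2 CG. Among 32851 RefSeq promoter windows of 300 nt (GRCm38.p6), the median content of G and C was 52.7%, 94.6% held at least 1 CG, and 9.51% held 11 CG within 54 nt. That bar was set from the 5 stretches themselves, so their meeting it is no result, and the windows are longer than the stretches. No RNase-only stretch is shown, and the stretch opposite Nek6, in all 6, was at least as rich in G and C. Richness in CG is therefore not shown to be a trait of the MDA5-only group. The sequences come from GENCODE M21 transcripts and these RefSeq windows, which cover 38 of the 146 MDA5-only regions (26.0%), 161 of the 532 RNase-only regions and 33 of the 232 regions in all 6. With under 80% covered, a comparison of base composition between the groups is void, and none was made.

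Measurements that bear on the labels come before the results, because they differ from what the labels alone would give. Ifih1, the gene of MDA5 itself on chromosome 2 (62595798 to 62646255), had 13, 14 and 13 peaks in MDA5-protected replicates 1, 2 and 3, all over exons, and no peak in any of the 3 Mavs-/- input libraries. These peaks covered 769, 796 and 765 of the 1025 residues of the protein. The recombinant protein lacks the N-terminal CARD residues, and of those 0, 1 and 0 were covered. Peaks on the opposite strand of Ifih1 numbered 10, 8 and 7. The MDA5-protected libraries of the second genotype, at 13 to 14 peaks and 0 to 15 CARD residues covered, gave much the same values. Among the Mavs-/- RNase only libraries, the library labelled replicate 1 had 16 Ifih1 peaks over 816 residues, 131 of them among the residues that the recombinant protein lacks. It also had 16 peaks on the opposite strand. Replicate 2 had no Ifih1 peak and replicate 3 had 2. The editing-deficient RNase only libraries had 5, 1 and 2 Ifih1 peaks over 273, 64 and 98 residues, none of them a CARD residue. Ifih1 was singled out after its values were seen, and the source of these reads was not tested. The counts of regions and genes, the intron and 3′ UTR shares and the share near starts are therefore also given without RNase only replicate 1.

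Cell type markers were looked up next. All 12 hepatocyte markers, among them Alb, Ttr and Cps1, had a peak in the Mavs-/- input, with 12, 12 and 11 of them in the 3 libraries, while 0, 0 and 1 of the 12 had one in the MDA5-protected and 1, 0 and 0 in the RNase only libraries. Erythroid markers behaved likewise, with 7, 6 and 8 of 10 in the input and none in the digested libraries. A gene that is abundant in the input is harder to call in a digest, since the input was the control. The reverse was seen for genes of large-intestine epithelium and of visceral smooth muscle, in lists added after these peaks had been seen. Of 28 large-intestine genes, 26, 26 and 25 had a peak in the RNase only libraries, 13, 11 and 11 in the MDA5-protected libraries and 3, 1 and 2 in the input. Defining members at 0 in all 3 input libraries included Hoxb13, a transcription factor of the hindgut, Muc2, the secreted mucin of goblet cells, Krt20, a keratin of surface epithelium, and Cdh17, an intestinal cadherin. Cdx2, a transcription factor of intestinal epithelium that is also on the list, had no peak in the 6 digested libraries. All 8 smooth-muscle genes, such as Actg2 and Myh11, had an RNase only peak, with 7, 8 and 6 of them in the 3 libraries, against 2, 1 and 0 with MDA5 and 1, 0 and 1 in the input. Of the other cells that liver holds, 2 of 10 Kupffer cell, 1 of 7 endothelial, 4 of 7 stellate and 3 of 5 cholangiocyte markers had a peak in the 6 libraries. Of 10 small-intestine genes, Rbp2 alone had a peak, in RNase only replicate 1, and Sis, Lct and Defa24 had none. The editing-deficient RNase only libraries carried 28, 25 and 24 of the large-intestine genes. Labelled as liver, the digested libraries thus held peaks of genes that mark another organ, and the part of that RNA in the results was not tested.

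**Figure D1:**
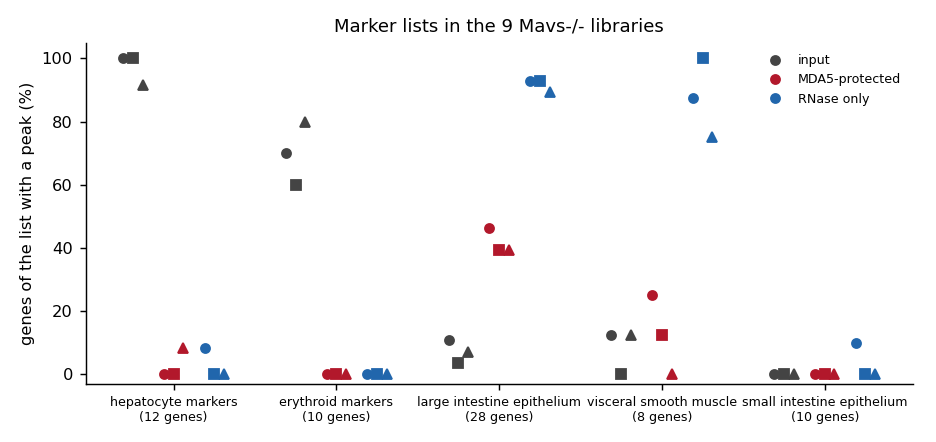
Share of the genes of 5 marker lists with a peak (vertical axis, %) in each of the 9 Mavs-/- libraries; circles, squares and triangles are replicates 1, 2 and 3, and black, red and blue are input, MDA5-protected and RNase only. Hepatocyte and erythroid markers appear in the input (60% or more of each list) and hardly in the digests, whereas the large-intestine and smooth-muscle genes appear mainly in the RNase only libraries.

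The digested libraries also shared an excess on chromosome 1. It held 15.6%, 12.9% and 11.0% of the MDA5-protected peaks and 14.3%, 13.9% and 10.7% of the RNase only peaks, against 6.87% to 7.88% of input peaks, and its first 25 Mb held 5.08% to 8.31% and 3.71% to 6.12% against 0.392% to 0.462%. Counts without chromosome 1 are given where they matter. Neither Adar nor Mavs had a peak in these 6 libraries, and a peak list cannot show a deleted exon.

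The MDA5-protected fraction gave fewer peaks than the RNase only fraction. The MDA5-protected libraries held 1829, 1220 and 1180 peaks in replicates 1, 2 and 3, and the RNase only libraries 5572, 3826 and 3150. Every MDA5-protected list was shorter than every RNase only list, with means of 1410 ± 364 and 4183 ± 1250 peaks (SD, n = 3 each; two-sided exact permutation p = 0.10, the smallest that 3 against 3 libraries allow). The peaks covered 477262, 252607 and 210258 bases against 1163314, 957512 and 587840 (exact permutation p = 0.10). The median peak length was 216, 143.5 and 128.5 nt with MDA5 and 176, 208.5 and 168 nt without it, which overlapped between the fractions (exact permutation p = 0.60). The number of peaks was not scaled to sequencing depth and cannot be read as an amount of protected RNA.

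Peaks in introns took a larger share with MDA5, and peaks in 3′ UTRs a smaller one. Introns held 56.3%, 43.1% and 37.7% of the MDA5-protected peaks and 30.5%, 26.9% and 24.6% of the RNase only peaks, a difference in means of 18.3 percentage points with no overlap (exact permutation p = 0.10, Benjamini-Hochberg adjusted over 5 classes 0.167). The 3′ UTRs held 3.34%, 4.02% and 3.14% against 28.9%, 36.5% and 13.8% (mean difference -22.9 percentage points; same p and adjusted p), where RNase only replicate 3 lay far below the other two. Other exons held 5.25%, 7.95% and 8.81% against 12.0%, 11.6% and 9.75%, again with no overlap and the same p and adjusted p, although the difference disappeared (0.278 points) when only peaks with an area of at least 1000 were kept. Shares of 5′ UTR peaks (2.79%, 7.30% and 8.14% against 1.79%, 3.08% and 8.10%) and of intergenic peaks (32.3%, 37.6% and 42.2% against 26.7%, 21.9% and 43.7%) overlapped, with exact permutation p = 0.60 and 0.50. Within each replicate number the 5′ UTR share was the higher with MDA5 (exact sign-flip permutation p = 0.25, the smallest that 3 pairs allow), by little in replicate 3. Without RNase only replicate 1 the differences were 19.9 points for introns and -21.7 for 3′ UTRs. Shares are coupled: among peaks that touch no exon, the intronic difference was 6.53 points and the fractions overlapped (exact permutation p = 0.50).

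**Figure D2:**
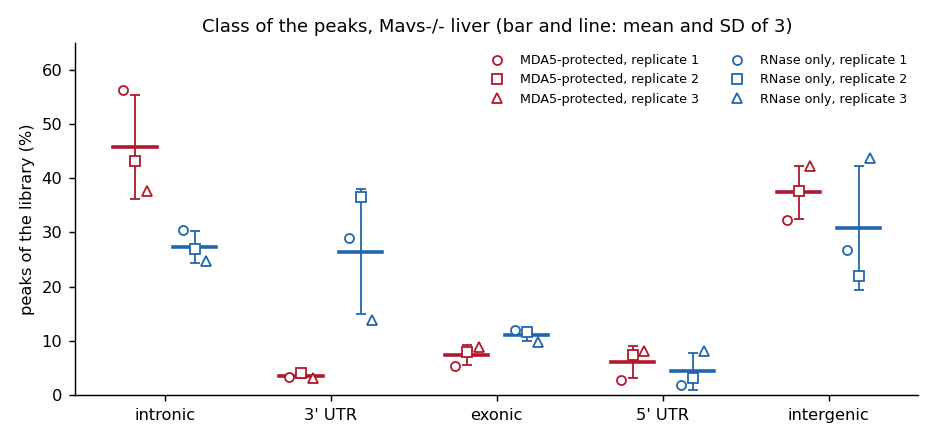
Share of the peaks of each library (vertical axis, %) in 5 classes; open circles, squares and triangles are replicates 1, 2 and 3, horizontal bars are means and vertical lines SD of 3 libraries, with MDA5-protected in red and RNase only in blue. The fractions are apart for intronic, 3′ UTR and exonic peaks and overlap for 5′ UTR and intergenic peaks.

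Most genic peaks lay in protein-coding genes in both fractions, 94.2%, 92.4% and 91.2% with MDA5 and 91.7%, 93.4% and 91.4% without (exact permutation p = 0.70). Pseudogenes took 2.34%, 2.23% and 2.49% of the genic peaks with MDA5 and 5.14%, 4.35% and 2.71% without, with no overlap (exact permutation p = 0.10, adjusted over 4 gene types 0.40), but with the sign turned to 1.54 points among peaks with an area of at least 1000. Long noncoding genes took 2.04% to 5.81% and small noncoding genes 0.0980% to 0.587% over the 6 libraries, and both overlapped between the fractions. Antisense peaks, with a gene on the opposite strand only, made up 12.5%, 17.7% and 22.1% against 10.5%, 8.42% and 23.9%. Peaks with a peak of the same library on the opposite strand made up 6.78%, 8.85% and 12.0% against 9.85%, 5.20% and 19.2%. In neither measure were the fractions apart (exact permutation p = 0.60 and 0.80).

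The 146 MDA5-only regions made up 1.63% of all regions, the 532 RNase-only regions 5.93% and the 232 regions in all 6 made up 2.58%. The largest pattern was a peak in a single RNase only library, with 4644 regions. These shares are fixed by the rule and are given as a background for the counts below. With the 1180 strongest peaks of every library, 192 regions were MDA5-only, 119 RNase-only and 109 in all 6, so the excess of RNase-only regions was not seen at equal numbers of peaks. Without RNase only replicate 1, whose Ifih1 peaks were described above, the 3 counts were 179, 631 and 246. They were 172, 844 and 239 without RNase only replicate 2 and 166, 1542 and 258 without RNase only replicate 3, so the RNase-only count rested most on that library. Leaving out 1 MDA5-protected library gave 201 to 210, 558 to 628 and 250 to 301 regions, and leaving out chromosome 1 gave 139, 473 and 203.

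The 3 groups differed in class, for which a touch of 1 base is enough and a 5′ UTR goes first. A region counted in a class may thus lie mostly outside it. Of the 82 nt Pdzd8 region, counted in 5′ UTRs, 81 nt lay outside annotated UTRs. The 2256 nt RNase-only region of B3gnt7, which ends near the 3′ end of its gene, also counts there. Of the MDA5-only regions 67 were intergenic (45.9%, 95% Clopper-Pearson interval 37.6% to 54.3%), 55 intronic (37.7%), 11 in 5′ UTRs, 11 in other exons and 2 in 3′ UTRs (1.37%, interval 0.166% to 4.86%). Of the RNase-only regions 209 touched a 3′ UTR (39.3%, interval 35.1% to 43.6%), 111 were intergenic (20.9%), 110 intronic (20.7%), 80 in other exons and 22 in 5′ UTRs. The regions in all 6 were mostly intronic (92, or 39.7%) and intergenic (86, or 37.1%), with 16 in 3′ UTRs, 21 in other exons and 17 in 5′ UTRs. Over all regions 28.3% were intronic, 23.8% in 3′ UTRs and 32.4% intergenic. The intervals cover counting error only and treat regions as separate, although several may come from 1 transcript. Of the large-intestine genes 10 were among the 325 RNase-only genes (3.08%), 8 among the 143 genes in all 6 (5.59%) and none among the 49 MDA5-only genes, against 26 of all 3670 genes with a peak (0.708%). Of the smooth-muscle genes 4 were RNase-only (1.23%, against 0.218% of all genes with a peak) and none was in the other groups. Both lists were drawn up after peaks of their genes had been seen. Their shares therefore only describe the groups, and no enrichment is drawn from them. The part of these transcripts in the class shares was not tested.

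Taken over all classes, MDA5-only regions were the shortest. Their median length was 93 nt (quartiles 68 and 181), against 255 nt (164 and 521) in the RNase-only group, 265 nt (130 and 634) in the regions in all 6 and 185 nt over all regions. The deposited peaks in them were also shortest in the MDA5-only group, but longer in the RNase-only group than in all 6, with medians of 85.8, 208 and 172 nt for the mean peak length of a region. Length followed class within each group. In the MDA5-only group intronic regions had a median of 215 nt, intergenic ones 80 nt and exonic ones 73 nt. In the RNase-only group 3′ UTR regions had a median of 572 nt and intronic ones 226 nt, while in the regions in all 6 the intronic ones reached 552 nt. A region seen in 6 libraries is merged from more peaks than one seen in 3, which lengthens it. Reads were 75 bp long, so lengths near that value are not read as the size of a protected RNA.

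**Figure D3:**
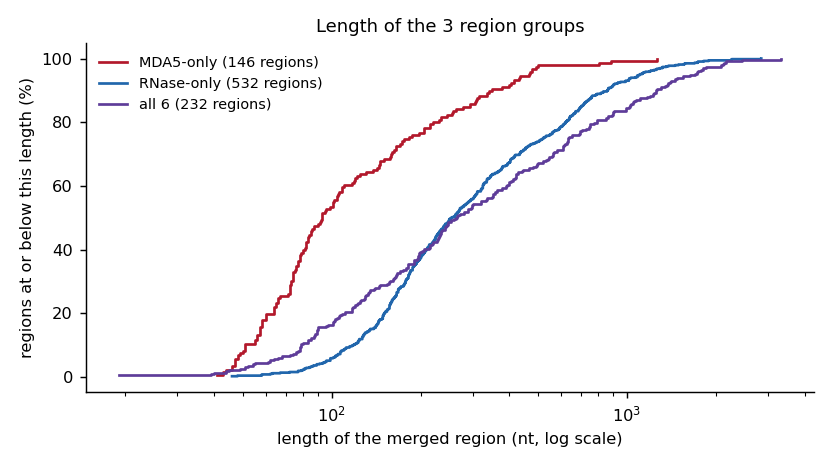
Cumulative share of regions (vertical axis, %) by length of the merged region (horizontal axis, nt, log scale) for MDA5-only (red), RNase-only (blue) and all 6 (purple). Over most of the range the MDA5-only curve lies left of the others, with a median of 93 nt against 255 and 265 nt.

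Closeness to a transcription start was a feature that the rule did not use and that was added after the named regions had been seen. It was measured to the nearest 5′ end of a transcript of a protein-coding gene on either strand. Within 500 bp of such a start lay 65 of the 146 MDA5-only regions (44.5%, interval 36.3% to 53.0%), 56 of the 532 RNase-only regions (10.5%, interval 8.05% to 13.5%) and 74 of the 232 regions in all 6 (31.9%, interval 25.9% to 38.3%), against 16.9% of all regions. Of the 65 MDA5-only regions near a start, 37 lay on the strand opposite to the gene (56.9%), as did 39 of the 74 in all 6 (52.7%), 17 of the 56 RNase-only regions (30.4%) and 669 of the 1521 regions near a start in all (44.0%). These 65 regions had a median of 90 nt, whereas the 41 intronic MDA5-only regions away from a start had a median of 258 nt. Intronic regions away from a start had a median of 226 nt in the RNase-only group and 579 nt in all 6. In that subset the MDA5-only regions were thus not the shortest. Per library, 15.0%, 30.3% and 36.6% of the MDA5-protected peaks and 7.70%, 11.7% and 29.5% of the RNase only peaks were near a start. The fractions overlapped (exact permutation p = 0.20), since RNase only replicate 3 lay above MDA5-protected replicate 1, while within each replicate number the MDA5-protected library was the higher. Taking the numbers as pairs, the mean difference was 11.0 points (exact sign-flip permutation p = 0.25, the smallest that 3 pairs allow). It was 6.75 points without RNase only replicate 1, 17.6 without RNase only replicate 3, 17.2 without MDA5-protected replicate 1 and 6.4 without MDA5-protected replicate 3.

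**Figure D4:**
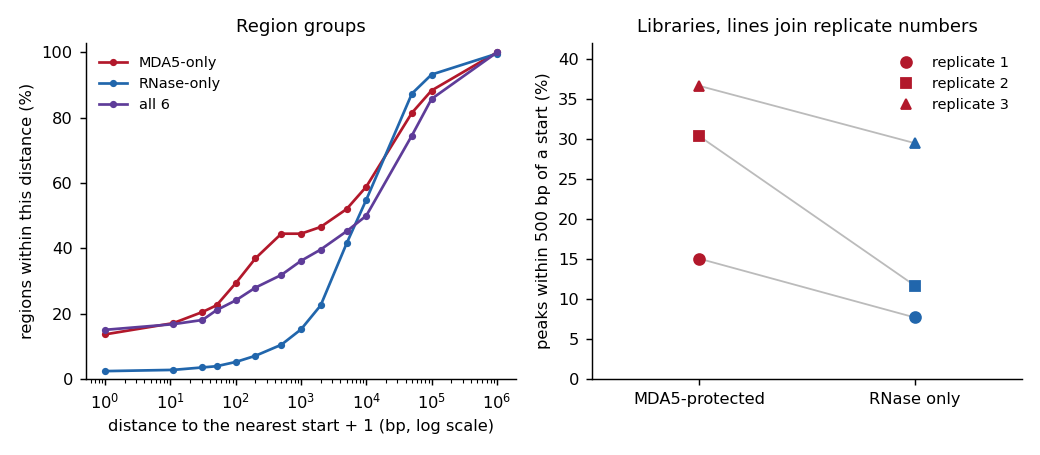
Left, cumulative share of regions (vertical axis, %) by distance to the nearest start of a protein-coding transcript (horizontal axis, bp plus 1, log scale) for MDA5-only (red), RNase-only (blue) and all 6 (purple). Right, share of the peaks of each library within 500 bp of a start, with lines joining the same replicate number; all 3 lines fall from MDA5-protected to RNase only, but the fractions overlap.

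Of the 5 strongest MDA5-only regions by mean rank of the area within their libraries, 4 lay within 500 bp of the start of a gene. The first was an 82 nt region at the start of Pdzd8, a lipid transfer protein of the endoplasmic reticulum, with area percentiles of 99.7, 99.4 and 99.4 in the 3 MDA5-protected libraries. The next was the 72 nt region in the first exon of Eif3f, a subunit of translation initiation factor eIF3, at a mean percentile of 99.1. Regions opposite the starts of Cadps2, a factor of dense-core vesicle release, and of Erf, an ETS repressor, and an intergenic region on chromosome 9 (4260381 to 4260540, minus strand) followed, with mean percentiles of 98.6, 98.2 and 98.2. All 5 also had a peak in all 3 Mavs-/- input libraries, so the MDA5-only label says only that no RNase only library had a peak there. Pdzd8, Eif3f and the region opposite Erf had peaks in all 3 editing-deficient MDA5-protected libraries. The region opposite Erf was covered over 18, 32 and 64 bases in MDA5-protected replicates 1, 2 and 3, so its full length was covered in replicate 3 only.

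The longest MDA5-only regions were intronic and lay far from starts. A 1260 nt region in an intron of Sdc2, the heparan sulphate proteoglycan syndecan-2, was covered over 1165, 1250 and 1011 bases in the 3 MDA5-protected libraries. Introns of Slc22a27, an organic anion transporter, of Ghr, the growth hormone receptor, of Thrb, a thyroid hormone receptor, and of Lyrm4, a factor of iron-sulphur cluster assembly, held regions of 884, 802, 501 and 492 nt. None of these 5 had a peak in an input library of either genotype, and those in Slc22a27, Thrb, Lyrm4 and Sdc2 had a peak in all 3 editing-deficient MDA5-protected libraries. Those in Sdc2 and Lyrm4 also had one in 2 and 1 of the editing-deficient RNase only libraries.

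In the RNase-only group the strongest regions were 3′ UTRs. Those of Golm1, a Golgi membrane protein, Gpa33, a surface antigen of intestinal epithelium, Tmprss2, a membrane serine protease, Hoxb13 and Mboat1, a lysophospholipid acyltransferase, were 692 to 1456 nt long, with mean area percentiles of 98.2 to 98.8. None had a peak in an input library of either genotype, all 5 had one in every editing-deficient RNase only library, and 1 to 3 of the editing-deficient MDA5-protected libraries had one there too. The longest RNase-only region, 2850 nt on chromosome 8 opposite Def8, was followed by Mgat4a (3′ UTR, 2263 nt), B3gnt7 (2256 nt), Cnnm4 and Mxd1. Tgm3, a transglutaminase, held 7 RNase-only regions, the most of any gene.

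The regions in all 6 included 13 on the mitochondrial genome, which held 5.60% of that group, 0.323% of all regions and none of the MDA5-only or RNase-only regions. Of the 13, 6 lay on the minus and 7 on the plus strand. The largest ran over 3332 bases of the minus strand (11201 to 14532), across mt-Nd6, a complex I subunit and the single protein-coding gene of that strand, and opposite mt-Nd5 and mt-Cytb, and another over 1232 bases of the plus strand (12910 to 14141), in mt-Nd5. Bases covered by peaks on both strands numbered 6647, 4016 and 2495 in the MDA5-protected, 7083, 4948 and 1915 in the RNase only and 13755, 10982 and 12362 in the input libraries. The first 2 ranges overlapped, so cover of both strands was not shown to differ between the fractions. Mitochondrial peaks took 3.6%, 5.54% and 4.53% of the covered bases with MDA5 and 1.65%, 1.70% and 1.56% without. These shares did not overlap, but the covered mitochondrial bases, summed over the strands, did, at 17189, 13987 and 9535 against 19172, 16314 and 9184, and the RNase only totals were larger.

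Intronic regions in all 6 were spread over long genes with many peaks. Dpyd, which degrades pyrimidines, had 52 regions, 8 of them in all 6, 1 MDA5-only and 3 RNase-only, and its peaks covered 14978, 12605 and 6792 bases with MDA5 and 11208, 13672 and 5303 without, which overlap. F8, coagulation factor VIII, had 16 regions, Slc22a27 27, Sntg1, a syntrophin, 59 and Ube2e2, a ubiquitin-conjugating enzyme, 27. The Ube2e2, F8 and Dpyd introns gave the longest nuclear regions of the group, at 2167, 2139 and 2113 nt. In the F8 intron the MDA5-protected libraries covered 1980, 1704 and 1581 bases of its region and the RNase only libraries 1386, 1376 and 1067, with no overlap. The Dpyd region was also apart, at 1262, 1735 and 804 against 722, 668 and 524. In the Ube2e2 region the fractions overlapped, at 1984, 1737 and 1369 against 1834, 1992 and 1448. Of the 232 regions in all 6, 106 were covered over more bases with MDA5, and no gain is drawn from the longest ones.

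Within the regions in all 6, the same places could be compared between the fractions. The median length of the peaks there was 190, 201.5 and 190 nt with MDA5 and 180, 206 and 198 nt without (exact permutation p = 1), and 106 of the 232 regions were covered over more bases with MDA5 than without. These regions held 17.8%, 30.6% and 32.9% of the bases under MDA5-protected peaks and 6.70%, 8.47% and 10.9% of those under RNase only peaks, with no overlap (exact permutation p = 0.10). The MDA5-protected lists are shorter, which by itself raises such a share. The area percentile within a library differed by a median of -3.49 points, MDA5-protected minus RNase only (quartiles -17.4 and 3.44), and 27 regions were higher and 72 lower in all 3 MDA5-protected libraries than in all 3 RNase only libraries. A percentile depends on the length of its list, and the direction of these counts changed with the scale. By rank from the largest area, 90 of the 232 regions ranked higher and 23 lower in all 3 MDA5-protected libraries than in all 3 RNase only libraries. With the 1180 strongest peaks of each library, 17 ranked higher and 22 lower of 109 regions, and the median difference was -0.141 percentile points. No direction over the regions in all 6 is therefore drawn from the area.

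On the percentile scale the largest gain was an intronic region of Gm5763 on chromosome X, 68.8 points higher with MDA5, followed by an intron of Gm30881 beside the start of Morc3 (58.5), the region opposite Nek6, a mitotic kinase (55.2), the start of the histone methyltransferase gene Suv39h1 (53.7) and that of Nrg3, a neuregulin (51.3). The largest losses were in Guca2a (-74.2 points), an F8 intron (-68.4), Muc3, an intestinal mucin (-60.2), an Enpp2 intron (-58.6) and an intergenic region of chromosome 1 (-58.6). By rank from the largest area, the Gm5763 region stood at 125, 75 and 71 with MDA5 and at 5019, 2531 and 2183 without, and the Guca2a region at 952, 1064 and 1156 with MDA5 and at 210, 181 and 189 without. None of the 5 gains was among the 1180 strongest peaks of any RNase only library. The ranks of the fractions did not overlap for 9 of these 10 regions. They overlapped for the Enpp2 intron (1495, 1086 and 1056 against 1931, 479 and 1178). The 10 regions were picked as extremes of the same areas, so this separation follows largely from the choice and is not read as a result. Of the 232 regions from which they were picked, 90 ranked higher and 23 lower with MDA5 with no overlap between the fractions. Of the 5 regions with the largest loss, those in Guca2a and Muc3 belong to genes on the large-intestine list.

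Gene groups followed the region groups. The 49 MDA5-only genes were 1.34% of the 3670 genes with a peak, the 325 RNase-only genes 8.86% and the 143 genes in all 6 made up 3.9%. Of the MDA5-only genes 28 (57.1%) had no peak over an exon and 18 had exonic peaks only, while among the RNase-only genes 68 (20.9%) had none over an exon and 238 (73.2%) had exonic peaks only. In all 6, 77 of 143 (53.8%) had none over an exon, against 31.9% of all genes with a peak. The median gene length was 43953 bp in the MDA5-only group, 26591 bp in the RNase-only group, 79033 bp in all 6 and 30407 bp over all genes with a peak, where longer genes offer more intron in which a peak can fall. Protein-coding genes made up 75.5%, 94.2% and 88.1% of the groups and long noncoding genes 22.4% (11 genes), 3.08% and 5.59%, against 86.5% and 6.27% of all genes with a peak. Among the 11, Gm45847 and Gm45846 overlap and count the same peaks, as do Gm15614 and Gm10461. A peak in at least 1 Mavs-/- input library was found for 30.6%, 28.9% and 35.7% of the groups and for 30.4% of all genes with a peak. Without RNase only replicate 1 the groups held 53, 374 and 148 genes, without chromosome 1 46, 298 and 129, and without RNase only replicate 3, 883 genes were RNase-only.

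The MDA5-only genes with the best mean rank of summed area were Eif3f, Shisa4, Stard4, Optn, Slc25a13, Slc2a2, Gm13200, Arhgap21, Tceal7 and Ston1, with 1 or 2 peaks in each MDA5-protected library. Stard4, a carrier of cholesterol between membranes, had 2, 2 and 1 peaks and none over an exon, and Shisa4 had 1 exonic peak in each. Optn, an autophagy receptor, had 2 peaks in each MDA5-protected library. Slc2a2, the glucose transporter GLUT2 of hepatocytes, had intronic peaks only, in 4 regions, with 2, 2 and 1 peaks. None of its regions was MDA5-only, so no single place had a peak in all 3 MDA5-protected libraries. Slc25a13, the mitochondrial aspartate-glutamate carrier citrin, had 2, 1 and 1. Slc2a2 and Slc25a13 both had peaks in all 3 Mavs-/- input libraries. Of these MDA5-only genes, all but Shisa4, Gm13200 and Tceal7 had a peak in 1 or 2 editing-deficient RNase only libraries. The RNase-only genes with the best ranks were Golm1, Tmprss2, Gpa33, Klf5, B3gnt7, Hoxb13, Tm4sf20, Ppp1r1b, Atp1b1 and Pmp22. Golm1 had 6, 5 and 4 peaks in the RNase only libraries, Tmprss2 8, 7 and 2, and Klf5, a transcription factor of proliferating gut epithelium, 3, 4 and 2. Atp1b1, a subunit of the sodium pump, had 5, 3 and 4. All peaks of these 10 genes were exonic, and none had a peak in a Mavs-/- input library, while every one had a peak in all 3 editing-deficient RNase only libraries and in 1 to 3 of the editing-deficient MDA5-protected ones. The first genes in all 6 were mt-Nd5, Dpyd, Slc22a27, Mpped1, F8, Zeb1, Tmlhe, mt-Nd6, Sntg1 and Ube2e2. Slc22a27 had 29, 26 and 15 peaks with MDA5 and 28, 25 and 17 without. Zeb1, a repressor of epithelial genes, had 16, 16 and 13 against 17, 19 and 10, and F8 13, 12 and 13 against 17, 14 and 14. Peak numbers thus overlapped for Slc22a27 and Zeb1 and not for F8, where the RNase only lists are the longer. The bases covered in F8 did overlap, at 6293, 4191 and 5305 with MDA5 and 5613, 4798 and 4266 without. No peak of Dpyd, Slc22a27, F8, Tmlhe or Sntg1 touched an exon. In the editing-deficient mice 16 of the 49 MDA5-only genes (32.7%) met the same pattern, against 1.34% of all genes with a peak, and 130 of the 325 RNase-only genes (40%) did, against 12.6%. All genes with a peak include the groups and genes with a peak in fewer libraries than a group requires.

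Lists of genes of liver function and of dsRNA biology were counted in the gene groups. Over all 3670 genes with a peak, 1.34% were MDA5-only, 8.86% RNase-only and 3.9% in all 6. The RNase only libraries also held more peaks. The counts below were not tested against these shares and are not read as results about a list. Of 70 plasma protein genes 67 had an input peak, but 8 a peak in any of the 6 digested libraries, with 3 in all 6 and none in the other groups. Among the 3 were Gc, the vitamin D binding protein, and Ghr, both with intronic peaks only. Of 34 urea cycle and amino acid enzymes 4 had a peak, with Kynu, an enzyme of tryptophan breakdown, in all 6. Of 34 genes of fatty acid oxidation 8 had a peak, and of 16 erythroid genes 3, with none in a group. Cytochromes P450 gave 18 of 94, with Cyp2b9 and Cyp3a44 in all 6 and Cyp2d34 RNase-only. Of 16 genes of dsRNA-binding proteins 5 had a peak, with Stau2 and Strbp in all 6. Of 33 dsRNA sensors and interferon-stimulated genes 7 had a peak, with 7, 3 and 1 of them in the RNase only libraries and Ifih1 alone in the MDA5-protected ones, and none fell in a group. Irf7, Oas1a and Ifi27, singled out after their values were seen, had peaks in RNase only replicate 1 and in no other of the 6. Of 83 cytosolic ribosomal protein genes 30 had a peak, all 30 in RNase only and 2 in MDA5-protected libraries, with Rpl3 RNase-only. Of 421 zinc finger genes 40 had a peak, with 1 MDA5-only, 4 RNase-only and 2 in all 6, and of 67 histone genes 2 had one, with Hist1h2bc RNase-only. Of 24 lncRNAs of the nucleus and of small RNA hosts 2 had a peak. Small structured noncoding genes gave 26 of 6115, with 1 RNase-only and 4 in all 6, and mitochondrially encoded genes 31 of 37, with 11 in all 6 and mt-Tk RNase-only. Among the 3 genes whose fragments were cloned in the study, Knl1, a kinetochore scaffold, had 1 exonic peak in each MDA5-protected library and 0, 1 and 1 in the RNase only libraries. Rnf168, a ubiquitin ligase of DNA repair, had 1 exonic peak in MDA5-protected replicate 2 only, and Zkscan3, a zinc finger repressor of autophagy genes, had 1 in replicate 3 only.

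The groups were then looked up in the 12 libraries that the rule did not use. Of the MDA5-only regions 59.6%, 78.1% and 80.8% had a peak in editing-deficient MDA5-protected replicates 1, 2 and 3, against 13.2%, 19.7% and 20.1% of all regions, and 0%, 4.79% and 8.90% in the editing-deficient RNase only libraries, against 24.1%, 41.8% and 39.6%. The same pattern, all 3 MDA5-protected and no RNase only library, was met in the editing-deficient mice by 70 of the 146 (47.9%, interval 39.6% to 56.4%), against 2.15% of all regions. Of the RNase-only regions 66.4%, 91.5% and 86.8% had a peak in the editing-deficient RNase only libraries, and 166 of the 532 (31.2%, interval 27.3% to 35.3%) repeated their pattern, against 8.2% of all regions. Of the regions in all 6, 71 of 232 (30.6%, interval 24.7% to 37.0%) were in all 6 digested editing-deficient libraries, against 1.72% of all regions. All regions are not a like set, since 51.7% had a peak in 1 RNase only library alone and 7.62% in 1 MDA5-protected library alone. The groups require a peak in 3 or 6 libraries and are themselves part of all regions. How much of each contrast this makes was not tested. Editing-deficient RNase only replicate 1 stood apart from the other two of its fraction, with a peak in 40.5% of the regions in all 6 against 92.2% and 91.4%. No MDA5-only region met the RNase-only pattern there and no RNase-only region the MDA5-only pattern, where counts of 0 allow up to 2.49% and 0.691% (upper Clopper-Pearson bounds). Both genotypes went through the same protocol per the labels.

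**Figure D5:**
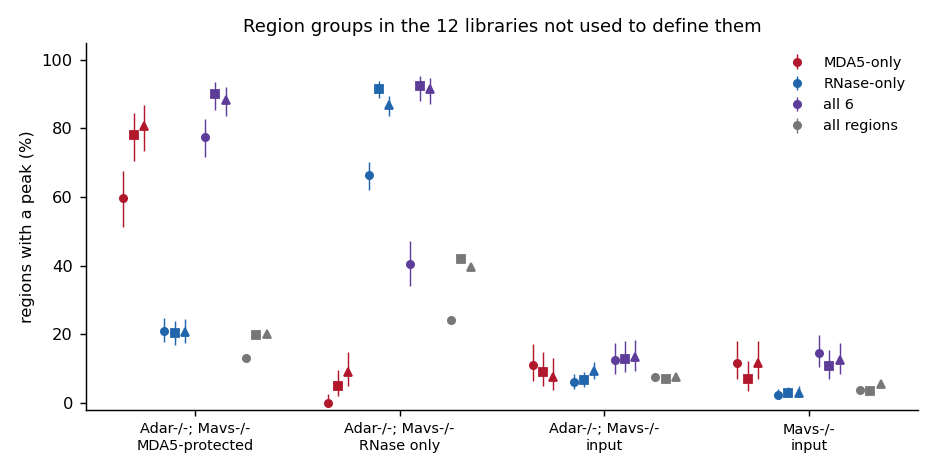
Share of regions with a peak (vertical axis, %) in each of the 12 libraries that were not used to define the groups, for MDA5-only (red), RNase-only (blue), all 6 (purple) and all regions (grey); circles, squares and triangles are replicates 1, 2 and 3 and lines are 95% Clopper-Pearson intervals. MDA5-only regions recur in the editing-deficient MDA5-protected libraries (59.6% to 80.8%) and hardly in the RNase only libraries (0% to 8.90%).

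By subset, the MDA5-only pattern recurred in 26 of the 65 MDA5-only regions near a start (40%), in 44 of the 81 away from one (54.3%) and in 29 of the 55 intronic regions (52.7%), but in 2 of the 11 exonic regions. The RNase-only pattern recurred in 94 of the 209 RNase-only 3′ UTR regions (45.0%) and in 14 of the 110 intronic ones (12.7%). Shares over all regions of the same subset were not computed. Over all regions of every class, 2.15% met the MDA5-only and 8.2% the RNase-only pattern. Lengths differed too, with medians of 572 nt for these 3′ UTR and 226 nt for these intronic regions, and an overlap of 1 bp counted. No difference between subsets is therefore read from these counts. An input peak of Mavs-/- liver lay on 13 of the 65 MDA5-only regions near a start (20%) and on 6 of the 81 others (7.41%), on 5.83% of the RNase-only regions and on 15.1% of those in all 6, against 7.63% of all regions.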

How the data were processed

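The sources describe RNA of Mavs-/- liver (mice 8 to 9 days old, 3 biological replicates per fraction), refolded, incubated with or without MDA5ΔCARD, digested with RNase, and sequenced as 75 bp single-end reads after rRNA depletion. Trimming by the authors used Trim Galore 0.6.6, alignment used NextGenMap 0.5.5 (GRCm38), and peaks were called per library and strand with Genrich 0.6.1 (adjusted p at most 0.01, area of at least 500, gap of 20 bp), with input as control of the digested libraries. The deposited score of a peak is its area under the significance curve, and the deposited −log10 values are those of its p and adjusted p. The area depends on depth and was ranked within a library only. A peak list does not give its reads, so the depth behind each value is unknown, and library totals given by the study were not used.

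Here all deposited peaks were used. Peaks were merged across libraries (overlap of 1 bp, same strand) and given 1 class each from GENCODE M21, where a 5′ UTR outranked a 3′ UTR, then other exon (stop codons included), then intron, and intergenic was the rest. A touch of 1 base was enough for a class. The study itself used another GENCODE release. Values per library were compared by two-sided exact permutation tests (smallest p 0.10 for 3 against 3), Benjamini-Hochberg adjusted over 5 classes and 4 gene types, and shares have 95% Clopper-Pearson intervals, which cover counting error only. The replicates are biological triplicates per the methods, and the steps were tested on simulated data. Same-numbered libraries of the 2 fractions deviated together (correlations of 0.234, 0.133 and 0.216 over regions), while differently numbered ones gave -0.183 to -0.0155, so the replicate number was used as a block in an alternative. Deviations within a set of 3 libraries are tied to each other, so the negative values are no separate evidence of pairing.

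Members and lists were chosen with earlier results of these data known. Named were, per region group, the 5 longest regions and the 5 with the best mean area rank, per gene group the 10 genes with the best mean rank of summed area, in the regions in all 6 the 5 largest gains and losses of area percentile, Rnf168, Knl1, Zkscan3, Adar and Mavs, and members of gene lists in a gene group. Others were chosen after their values were seen, as were the lists of intestinal and smooth-muscle genes and the distance to starts. Python 3.11.15, numpy 2.4.6, scipy 1.17.1 and matplotlib 3.10.9 were used. Values of some single genes are not reported here.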

Additional observations from a re-analysis of the deposited data

Results flagged for a closer look

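A signal outside the compared libraries was taken up by rule. Of the 28 genes on the large-intestine list, 28, 25 and 24 had a peak in the 3 editing-deficient RNase only libraries, so the lowest was 24, against 2, 1 and 3 in the editing-deficient input libraries. In the editing-deficient MDA5-protected libraries 19, 18 and 18 had one. Cdx2, at 0 in the 6 libraries compared here, had 1 peak in editing-deficient RNase only replicate 1. The list was chosen after peaks of these genes had been seen, and where the RNA came from was not tested.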

How the results depend on the processing

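Over 33 results, 337 alternative values were computed, of which 265 were labelled unchanged, 55 moved and 17 turned in sign. For values per library, unchanged means that the direction and the side of the 0.05 threshold were kept. For counts and region lengths it means staying within a fixed ratio of the reported value. For shares of region groups and the area rank it means staying within a margin of that value. No test could pass 0.05 with 3 libraries a fraction, so an unchanged call says nothing of stability. Counts below are in the order MDA5-only, RNase-only and all 6, and the cause of a change was not tested unless the setting itself uses fewer peaks, libraries or genes.

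Region counts were 50, 129 and 56 with an area of at least 1000, 317, 1924 and 565 when 2 of 3 libraries sufficed, and 221, 1583 and 390 without both replicates 3. With equal peak numbers RNase-only regions fell to 119 and all 6 to 109. Outside exons 223 were RNase-only, without genes lacking an input peak 208 were RNase-only and 142 in all 6, and 114 were in all 6 when half-covered regions were required. Without 1 library the counts were 166 to 210, 558 to 1542 and 239 to 301. Gene counts were 17, 95 and 30 (area), 102, 1064 and 302 (2 of 3 libraries), 75, 901 and 218 (no replicates 3), 15, 97 and 54 (input peak required) and 31, 71 and 85 (wholly intronic peaks, and likewise peaks touching no exon). Exonic peaks gave 20 MDA5-only and 53 all 6 genes, and equal peak numbers 87 RNase-only and 80 all 6 genes. Without 1 library 53 to 73, 335 to 883 and 148 to 183 genes were found.

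Differences, MDA5-protected minus RNase only, turned at an area of at least 1000 for exonic (0.278 points), protein-coding (-2.62), pseudogene (1.54) and opposite-strand (3.72) shares and for peak length in all 6 (34.5 nt). Among peaks touching no exon they turned for median length (14.7 nt) and for intergenic (-6.53), long noncoding (-1.94), pseudogene (0.245) and antisense (-2.24) shares. Protein-coding shares turned at equal peak numbers (-1.32) and ran from -0.381 to 1.11 with 1 library left out, opposite-strand shares from -5.31 to 1.69, and peak length in all 6 from -8.83 to 13.9 nt. The median area difference in all 6 was -7.33 (area), -0.141 (equal numbers) and -6.89 to -2.53 (1 library left out). At equal numbers MDA5-only minus RNase-only regions gave -66.2 points for 3′ UTRs, 35.5 for introns and -466.5 nt for median length. The pattern recurred in the editing-deficient mice for 36% (area) and 38.5% (2 of 3) of MDA5-only regions, for 16.3%, 24.5% and, outside exons, 15.7% of RNase-only regions, and for 66.1%, 18.2%, 24.3% (outside exons) and 46.8% (equal numbers) of those in all 6.

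With the replicate block, the paired differences stayed at 18.3 points for introns and -22.9 for 3′ UTRs (exact sign-flip permutation p = 0.25 for both), and the block changed no call. Alternatives outside exons, without chromosome 1, without genes lacking an input peak, without both replicates 3 with other distances to a start and by rank from the largest area were chosen after seeing the data. Repeat content, G and C content and inverted repeats of the groups were not run, since sequence was at hand for 14.2% to 30.3% of the regions of a group.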
